A study of Mus musculus with 12 samples.

Results

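The comparison is of the H3K4me3 map of mouse small-intestinal epithelium on embryonic day E14.5 with that on E12.5, which takes 4 of the 12 samples of the study. The peaks of these 4 libraries on the autosomes were merged wherever they overlapped or touched, which gave 18499 regions. The cells of both stages were dissected from embryos of a mixed C57BL/6 CD1 background and sorted as EpCAM+ CD31- CD45- DAPI-, that is, live epithelial cells without the endothelial and leukocyte surface markers. The E14.5 group and the E12.5 group each had 2 H3K4me3 libraries made with the same Millipore antibody and shared 1 input library per stage, so that stage and input cannot be told apart. The other samples are adult (P60) Lgr5+ intestinal stem cells (ISC) and adult enterocytes from the same background, with their inputs. The p-values measure the spread between 2 libraries per stage, and the labels do not say how many embryos went into each.

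H3K4me3 is trimethylation of lysine 4 of histone H3. It is placed around the start sites of genes that are transcribed or ready to be, spreads further into the gene at many highly used and cell identity genes, and is seen most readily at promoters rich in CG pairs. Between these embryonic days the gut tube passes from a thick, dividing, regionally patterned epithelium towards the columnar epithelium that covers the first villi, guided by transcription factors such as CDX2, HNF4A, GATA4 and GATA6. In sorted material, a mark present in fewer cells and a weaker mark in every cell cannot be told apart.

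The promoters at which the comparison turned are shown first, because they differ in how the mark was called. Elf3, encoding an epithelial ETS factor, had a short region at E12.5 and a long one at E14.5. Vil1, encoding the microvillus protein villin, was called only in the E14.5 libraries of the 4. Hnf4a, encoding a nuclear receptor of intestine and liver, has an upstream start that was called in all 4 and a downstream start that was called in both E14.5 and neither E12.5 library. Cdx2, encoding the intestinal master regulator, was long at both stages. Each sequence is the RefSeq window of GRCm38.p6 from 250 bases before to 50 bases after the start, 5′ to 3′ on the strand of the gene, with CG pairs in capitals.

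Elf3, chr1:135258423-135258722, minus strand: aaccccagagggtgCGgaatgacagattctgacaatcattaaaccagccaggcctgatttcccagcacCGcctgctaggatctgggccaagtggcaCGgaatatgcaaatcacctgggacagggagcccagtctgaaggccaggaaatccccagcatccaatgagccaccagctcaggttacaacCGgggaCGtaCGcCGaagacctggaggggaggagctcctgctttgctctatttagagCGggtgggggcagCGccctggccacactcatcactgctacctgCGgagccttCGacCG

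Vil1, chr1:74409134-74409433, plus strand: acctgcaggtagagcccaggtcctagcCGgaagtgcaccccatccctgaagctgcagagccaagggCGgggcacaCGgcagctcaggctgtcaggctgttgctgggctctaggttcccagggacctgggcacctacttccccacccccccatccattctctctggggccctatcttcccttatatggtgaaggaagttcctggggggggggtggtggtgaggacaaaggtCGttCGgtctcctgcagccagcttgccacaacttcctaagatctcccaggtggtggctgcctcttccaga

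Hnf4a upstream start, chr2:163506607-163506906, plus strand: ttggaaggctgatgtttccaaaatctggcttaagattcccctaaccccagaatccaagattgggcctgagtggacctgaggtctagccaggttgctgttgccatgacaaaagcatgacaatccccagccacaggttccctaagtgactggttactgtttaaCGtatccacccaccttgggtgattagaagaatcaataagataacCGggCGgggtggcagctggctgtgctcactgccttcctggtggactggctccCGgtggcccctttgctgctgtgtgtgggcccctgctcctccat

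Hnf4a downstream start, chr2:163546905-163547204, plus strand: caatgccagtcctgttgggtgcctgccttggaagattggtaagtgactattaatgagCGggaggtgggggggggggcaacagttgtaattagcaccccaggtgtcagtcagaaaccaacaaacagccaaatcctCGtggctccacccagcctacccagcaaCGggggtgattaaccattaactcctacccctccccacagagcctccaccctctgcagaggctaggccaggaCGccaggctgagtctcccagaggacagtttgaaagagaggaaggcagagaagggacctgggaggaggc

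Cdx2, chr5:147307200-147307499, minus strand: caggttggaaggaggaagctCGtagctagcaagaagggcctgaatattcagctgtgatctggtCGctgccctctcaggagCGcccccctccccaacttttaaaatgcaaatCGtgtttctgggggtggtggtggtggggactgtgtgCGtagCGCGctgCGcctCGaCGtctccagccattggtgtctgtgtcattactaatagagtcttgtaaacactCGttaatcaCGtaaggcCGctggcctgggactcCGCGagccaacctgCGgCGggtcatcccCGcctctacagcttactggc

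The Elf3 window held 12 CG pairs, that of Vil1 5, both windows of Hnf4a 4, and that of Cdx2 18. The median over all 32851 RefSeq promoter windows of this length was 7. At least 12 pairs stood in 39.6% of all windows and at least 18 in 29.7%, while 38.0% held 4 or fewer and 43.6% held 5 or fewer. Listed genes were counted by their RefSeq window with the most pairs, which leans high against a median over single windows. Of 8 such genes with a region called in both E14.5 and neither E12.5 library, 5 had no more pairs than this median. Of 36 with a region called in all 4 libraries, 3 did. The medians of these groups of genes were 6 and 22 pairs. The upstream Hnf4a window, called at both stages, is as poor in CG pairs as the downstream one.

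The E12.5 lists held fewer and shorter peaks with lower scores. The E14.5 libraries had 43259380 and 22718162 tags and 15668 and 17068 autosomal peaks, against 15053166 and 22696869 tags and 10699 and 13218 peaks at E12.5. Replicate 2 of each stage was sequenced to nearly the same depth, and its median −log10 q was 26.2 at E14.5 and 9.74 at E12.5. This score is the authors' value for a peak, depends on depth and on the input of the stage, and is given only to describe each list. The median peak length was 1285 and 1235 bp at E14.5, against 899 and 915 bp at E12.5. For that reason lengths were scaled to equal medians over the 10252 regions called in all 4 libraries, and weight is put on regions that were strong (a −log10 q of at least 10 in both libraries of a stage) and wide (a mean of at least 3000 scaled bp in that stage). All lengths printed are unscaled bp under peaks, and log2 changes are of the scaled bp + 200.

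Most regions called at E12.5 were also called at E14.5, in lists that differ in strength. The E14.5 lists held 15322 regions in common and the E12.5 lists 10284. Of those common to the E12.5 lists 99.7% were shared by both E14.5 lists, whereas 66.9% of those common to the E14.5 lists were shared by both E12.5 lists. Regions called in both E14.5 and neither E12.5 library numbered 3247, which is 17.6% of the 18499 merged regions. The opposite pattern was seen in 12, or 0.0649%. Both counts depended on the lists: with lists of equal number there were 365 gained and 204 lost regions, and with a reciprocal overlap of 50% 5035 and 2287. Gained and lost regions numbered 4859 and 14 without E14.5 replicate 1, 3556 and 30 without E14.5 replicate 2, 3329 and 1001 without E12.5 replicate 1, and 4988 and 208 without E12.5 replicate 2. The excess at E14.5 was made up of short regions. The median length of the 3247 gained regions was 515 bp at E14.5, and 9.58% of them reached a −log10 q of 10 in both E14.5 libraries, while regions called in all 4 had a median of 1657 bp. Of the E14.5 regions under 500 bp, 87.6% had no E12.5 peak, and of those of 3000 bp or more, 0.973%, which is 9 of 925.

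**Figure D1:**
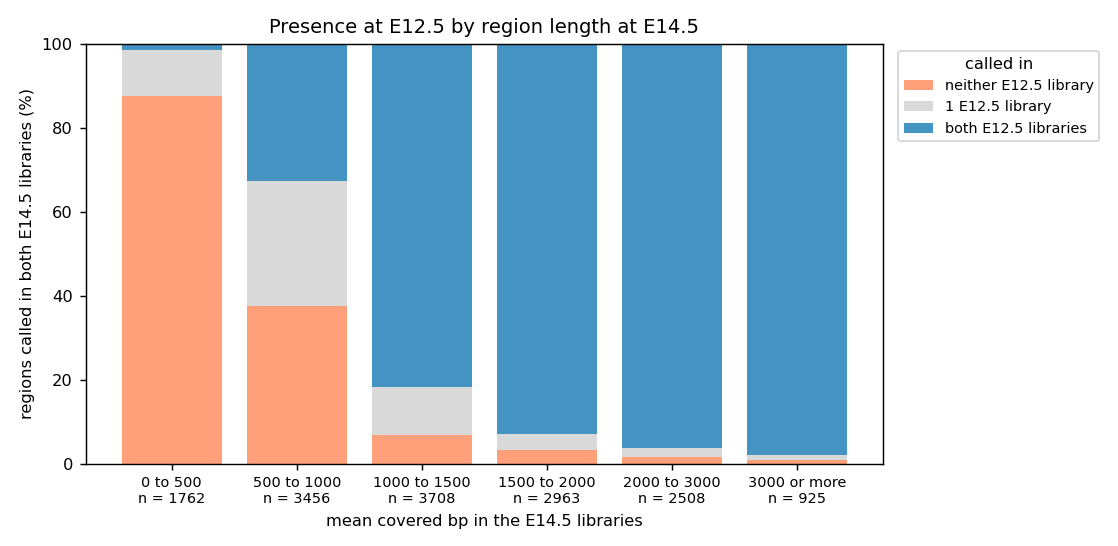
Regions called in both E14.5 libraries, split by their mean covered bp at E14.5 (x axis, n under each bar), with the percent called in neither, 1 or both E12.5 libraries (y axis). The share absent from both E12.5 lists is 87.6% in the shortest class and 0.973% in the longest.

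Over all regions tested, 3431 were longer at E14.5 (22.3% of 15393) and 373 were shorter (2.42%) at a limma adjusted p of 0.05. Of the longer ones, 3063 had no peak in either E12.5 library, so their E12.5 values had no spread and their adjusted p may be too small. The regions with a peak in every one of the 4 libraries included 343 longer (3.35%) and 361 shorter ones (3.52%). The scaling equalizes the medians over exactly these regions, so the near balance of these counts and their median change close to 0 follow from it. The 376 strong and wide regions included 32 longer and 19 shorter ones, and their median log2 change was −0.12, against 0.23 over all tested and −0.02 over those called in all 4. Of the 376, 323 met the definition at E14.5 and 98 at E12.5, so many entered through the stage at which they were wide, and the counts are a description. The change moved with length: in regions called in all 4, the median log2 change was 0.18 under 1000 scaled bp, averaged over the 4 libraries, and −0.26 from 3000 scaled bp. The unscaled length was greater in both E14.5 libraries than in both E12.5 libraries for all 343 longer regions. This follows from the calls, since their scaled lengths did not overlap and E14.5 lengths were scaled down. The unscaled length was smaller in both E14.5 libraries for 18 of the 361 shorter regions, and for 26 of all 10252 regions called in all 4. Nearly all shorter calls are thus relative to the general lengthening at E14.5. With the fit limited to regions called in all 4 libraries, limma called 2 longer and 1 shorter, with 2421 at an unadjusted p below 0.05. Single libraries also set the counts: longer and shorter regions numbered 27 and 10 without E14.5 replicate 1, 33 and 15 without E14.5 replicate 2, 4965 and 1920 without E12.5 replicate 1, and 7173 and 2704 without E12.5 replicate 2.

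**Figure D2:**
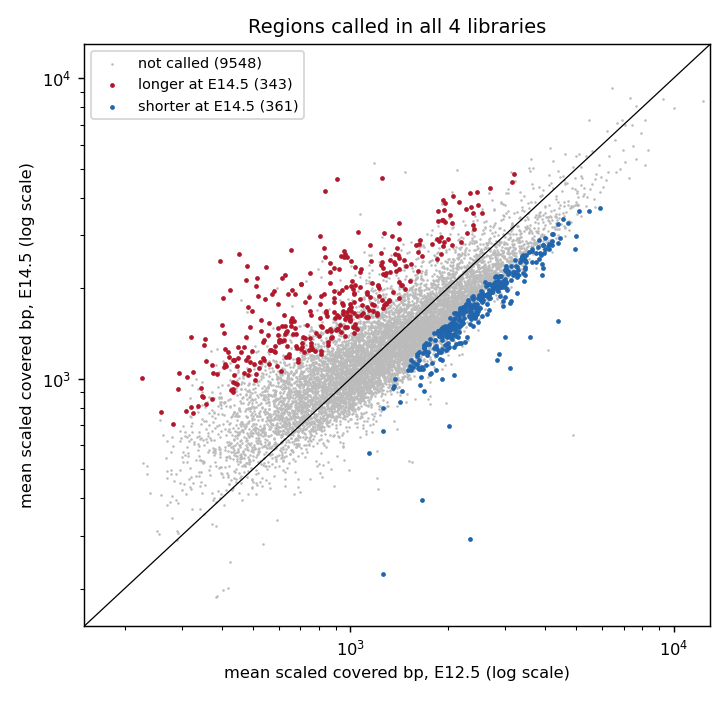
Mean scaled covered bp at E14.5 (y axis, log scale) against E12.5 (x axis, log scale) for the 10252 regions called in all 4 libraries, with the line of equality. The 343 regions called longer at E14.5 lie above the line and the 361 called shorter lie below it.

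Elf3 was among the 10 strong and wide regions with the largest lengthening, and was strong at E14.5 only. Its region in the authors' build mm9, chr1:137149836-137155874, was covered over 5822 and 6023 bp in the E14.5 libraries, against 813 and 582 bp in the E12.5 libraries. The stages did not overlap, and the scaled change was 2.16 on the log2 scale (SE 0.24, limma adjusted p = 0.00914). The −log10 q of the region was 58.8 and 51.4 at E14.5, against 5.49 and 5.07 at E12.5. In the adult lists it was covered over 5430 and 5950 bp in ISC and 5560 and 5629 bp in enterocytes, close to its length at E14.5. Limited to regions called in all 4 libraries, the fit gave Elf3 an adjusted p of 0.0583. The other members of the same list had smaller differences: Ets2 was covered over 3457 and 3439 bp at E14.5 and 1639 and 1786 bp at E12.5, and 1 of the 4 members tested, Elf3, was called longer, beside 22.3% of all regions. Ehf, a close relative of Elf3, had a peak of 814 bp in E14.5 replicate 2 only among the embryonic libraries.

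Cnnm4, which encodes a basolateral magnesium transporter of intestinal epithelium, had an almost identical pattern. Its region (chr1:36527751-36533757) was covered over 5919 and 6007 bp at E14.5 and 904 and 1059 bp at E12.5. The log2 change was 1.75 (SE 0.06, limma adjusted p = 0.00174), and it was 1 of the 2 regions still called longer in the fit on regions called in all 4, at an adjusted p of 0.0400. Oat, encoding the mitochondrial enzyme ornithine aminotransferase, was covered over 5312 and 5493 bp at E14.5 and 309 and 1053 bp at E12.5 (log2 change 2.22, SE 0.45, limma adjusted p = 0.0472). Its adult lengths were 5011 and 5396 bp in ISC and 711 and 1305 bp in enterocytes. The Oat call was lost with a pseudocount of 50 bp (limma adjusted p = 0.0605). It was also lost with regions called in at least 1 library (0.0667) and with lists of equal number (0.0945). Snx18, which encodes a sorting nexin of endocytosis, had 3823 and 4055 bp at E14.5 and 818 and 833 bp at E12.5, with a log2 change of 1.39 (SE 0.10, limma adjusted p = 0.0027). Arhgef11, encoding an activator of the GTPase RhoA, had 4203 and 4234 bp at E14.5 and 1156 and 1032 bp at E12.5 (log2 change 1.13, SE 0.15, limma adjusted p = 0.0161). Ccnd1, encoding the cell-cycle protein cyclin D, had 4389 and 5674 bp at E14.5 and 1302 and 1751 bp at E12.5 (log2 change 0.95, SE 0.15, limma adjusted p = 0.0236). Without E14.5 replicate 1 or 2, the adjusted p was 0.0888 or 0.0549 for Arhgef11 and 0.0756 or 0.382 for Ccnd1. In each of these genes both E14.5 libraries exceeded both E12.5 libraries. The rule by which these regions were picked required this of the scaled lengths, so it adds no support. The remaining strong and wide regions among the 10 with the largest change were Hif3a and a region at chr1:67158286-67162920, described below, and 2 without a placed gene, at chr3:128923201-128928694 (4906 and 5463 bp at E14.5, 1600 and 1627 bp at E12.5) and at chr7:125254749-125260384 (4350 and 5486 bp at E14.5, 1583 and 1467 bp at E12.5). The calls of these 2 regions were lost without either E14.5 library, at adjusted p of 0.162 and 0.272 on chromosome 3 and 0.116 and 0.468 on chromosome 7.

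Of the regions called in all 4 libraries, whatever their width, the 10 with the largest lengthening also included Adra2a, Atp5g2 and Gadd45g. Adra2a, an adrenergic receptor gene, was covered over 2860 and 3208 bp at E14.5 and 210 and 566 bp at E12.5. Atp5g2, a gene of the proton channel ring of ATP synthase, was covered over 2496 and 2546 bp at E14.5 and 444 and 193 bp at E12.5. Gadd45g, a stress and growth arrest gene, was covered over 3265 and 3607 bp at E14.5 and 358 and 695 bp at E12.5. Their log2 changes were 1.98, 1.88 and 1.78, with limma adjusted p of 0.0266, 0.045 and 0.0125. Atp5g2 was not called without E14.5 replicate 1 (adjusted p = 0.0839) or 2 (0.0549). The others, without a placed gene, lay at chr5:52504515-52507663, chr10:69386932-69390587, chr13:3357611-3360835, chr13:22086227-22089296 and chr7:116757321-116760548. That on chromosome 5 had 3149 and 3136 bp at E14.5 and 288 and 330 bp at E12.5, a log2 change of 2.16 (SE 0.09, limma adjusted p = 0.00174). With lists of equal number its log2 change was 0.30 (adjusted p = 0.915), and with all 8 libraries in the fit its adjusted p was 0.105. The first chromosome 13 region was not called without E14.5 replicate 2 (adjusted p = 0.106), nor that on chromosome 7 without E14.5 replicate 1 (0.0813). The second chromosome 13 region had 3056 and 2971 bp at E14.5 and 483 and 358 bp at E12.5, with 0 and 592 bp in ISC and none in enterocytes.

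**Figure D3:**
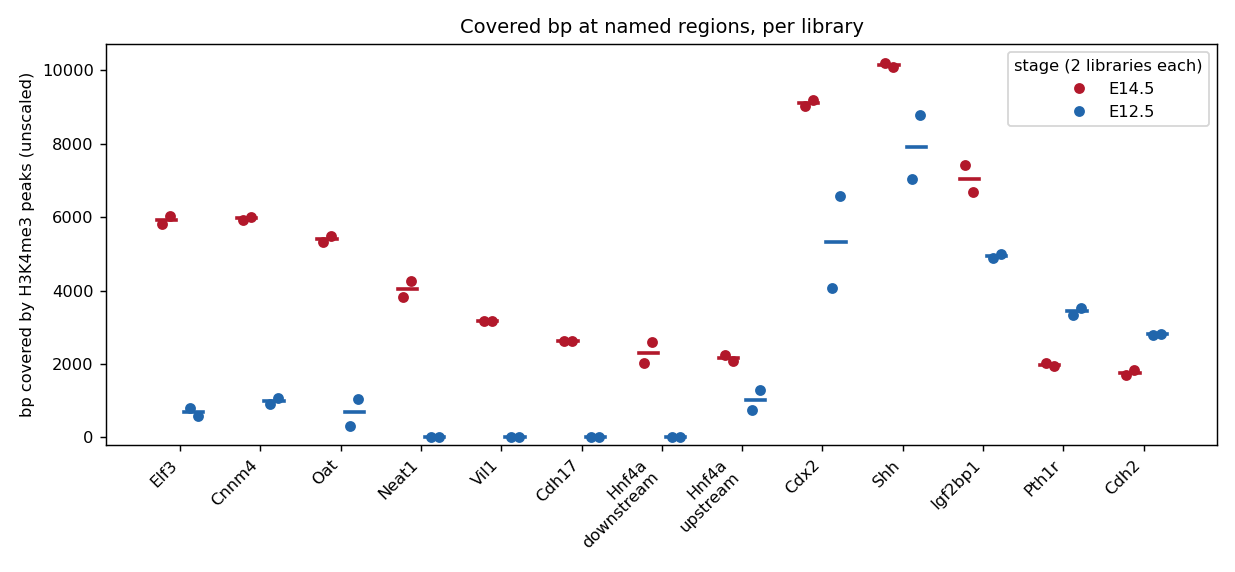
Covered bp (y axis, unscaled) in each library at 13 regions (x axis), with E14.5 in red and E12.5 in blue; points are single libraries and bars their means. Elf3, Cnnm4 and Oat are several times longer at E14.5, Neat1, Vil1, Cdh17 and the downstream Hnf4a region are at 0 bp in both E12.5 libraries, and Pth1r and Cdh2 are shorter at E14.5.

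Several long regions were present at E14.5 with no peak at E12.5. Hif3a, encoding a hypoxia-inducible factor subunit, was covered over 4289 and 5383 bp at E14.5 (chr7:17643403-17649031) and 0 bp in both E12.5 libraries. It and the region at chr1:67158286-67162920, with 4623 and 4046 bp at E14.5, were the 2 gained regions that were strong and wide. Neat1, the long noncoding RNA that builds nuclear paraspeckles, was covered over 3831 and 4250 bp at E14.5 (chr19:5842398-5846647) and 0 bp in both E12.5 libraries (limma adjusted p = 0.00174). Its neighbour Malat1, a noncoding RNA of nuclear speckles, was covered over 7398 and 7218 bp at E14.5 and 4046 and 4748 bp at E12.5, a scaled log2 change of 0.03 (SE 0.13, limma adjusted p = 0.888). Neat1 was also marked in the adult, over 2302 and 4204 bp in ISC and 3433 and 4250 bp in enterocytes. Its −log10 q of 15.6 and 9.47 at E14.5 fell just short of the bound for a strong region in replicate 2.

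The other 6 named regions among the 10 longest were Misp, an actin-bundling protein gene, Unc5cl, Lypd8, which encodes a gut protein that keeps bacteria from the epithelium, Tm4sf20, Vil1 and Slc7a7, a basolateral amino acid transporter gene. Their E14.5 lengths lay between 2505 and 3924 bp, and no E12.5 library had a peak there. Vil1 was covered over 3166 and 3176 bp at E14.5 (chr1:74454848-74458078), with a −log10 q of 17.9 and 10.7. The last of the 10, without a placed gene, was at chr18:64491637-64495222. Each of the 10 had a limma adjusted p between 0.00174 and 0.00202, with the limit given above for a stage at 0 bp. Of the 39 gained regions covered over 2000 bp or more in both E14.5 libraries, 31 were called in all 4 adult libraries. In both ISC lists 34 of the 39 were called, and in both enterocyte lists 33, while of all E14.5 regions of 2000 to 3000 bp 97.6% and 91.9% were. Hif3a was an exception, with 0 and 732 bp in ISC and 0 and 229 bp in enterocytes.

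Hnf4a showed the contrast within 1 gene. The upstream region (chr2:163332208-163334464) was covered over 2251 and 2082 bp at E14.5 and 741 and 1287 bp at E12.5, a log2 change of 0.38 (SE 0.20, limma adjusted p = 0.254). The downstream region (chr2:163372784-163375381) was covered over 2018 and 2598 bp at E14.5 and 0 bp in both E12.5 libraries (limma adjusted p = 0.002). In the adult, the downstream region had 2494 and 2598 bp in ISC and 2550 and 2598 bp in enterocytes, and the upstream one 1727 and 2046 bp in ISC and 739 and 960 bp in enterocytes. Without E12.5 replicate 1 or 2, the log2 change of the upstream region was 0.11 or 0.62. The downstream region was singled out after its values were seen.

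All 17 intestinal identity factors sought had a peak in both libraries at E14.5, and 15 did at E12.5. 3 were called longer (Cdx1, Atoh1 and Foxa3) and 1 shorter (Foxa2), with a median log2 change of 0.10, beside the 22.3% and 2.42% of all regions and their median of 0.23. Cdx2 was covered over 9024 and 9182 bp at E14.5 (chr5:148110979-148120172) and 4066 and 6571 bp at E12.5, a scaled log2 change of 0.10 (SE 0.23, limma adjusted p = 0.763). Its relative Cdx1 was covered over 2013 and 1823 bp at E14.5 and 0 bp in both E12.5 libraries (limma adjusted p = 0.00176). The zinc finger genes Gata6 and Gata4 were the widest of the list at E14.5. Gata6 had 12005 and 11699 bp at E14.5 and 4469 and 5704 bp at E12.5 (log2 change 0.51, SE 0.20, limma adjusted p = 0.167), and Gata4 had 10693 and 9958 bp at E14.5 and 6168 and 5701 bp at E12.5 (log2 change 0.09, limma adjusted p = 0.814). Atoh1, which directs cells to the secretory lineages, was covered over 3229 and 3262 bp at E14.5 and 0 and 264 bp at E12.5 (limma adjusted p = 0.0305). Foxa3 and Foxa2, pioneer factor genes of the endoderm, moved in opposite directions. Foxa3 had 3758 and 4071 bp at E14.5 and 1583 and 2022 bp at E12.5 (log2 change 0.39, SE 0.07, limma adjusted p = 0.0403). Foxa2 had 2721 and 2596 bp at E14.5 and 2258 and 2483 bp at E12.5 (log2 change −0.50, SE 0.08, limma adjusted p = 0.0276), so that it was shorter only after scaling. Without scaling its log2 change was 0.15. Leaving out E14.5 replicate 1 or 2 ended these 3 calls, with adjusted p of 0.134 or 0.0808 for Atoh1, 0.911 or 0.978 for Foxa3, and 0.858 or 0.978 for Foxa2. Without E12.5 replicate 1 or 2, the log2 change was −0.16 or 0.31 at Cdx2 and 0.41 or 0.55 at Gata6. The direction at Cdx2 thus rested on which E12.5 library was used.

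Each of the 9 epithelial structure genes had a peak in both libraries at E14.5, and 6 did at E12.5. 2 of the 9 were longer, Vil1 and Cdh17, beside 22.3% of all regions. Cdh17, encoding the liver-intestine cadherin, was covered over 2624 and 2618 bp at E14.5 and 0 bp in both E12.5 libraries (limma adjusted p = 0.00174). The genes that define epithelium in general were marked at both stages. Epcam, the sorting marker, had 3925 and 3838 bp at E14.5 and 2313 and 2800 bp at E12.5 (log2 change −0.09, SE 0.07, limma adjusted p = 0.407). Krt8, a keratin gene of simple epithelia, had 2353 and 2511 bp at E14.5 and 1609 and 2106 bp at E12.5 (log2 change −0.28, SE 0.08, limma adjusted p = 0.0877). Krt20, a keratin of differentiated villus cells, had 1697 and 1200 bp at E14.5 and 0 and 261 bp at E12.5 (limma adjusted p = 0.089). Krt20 was called longer without E12.5 replicate 1 (adjusted p = 0.0113) or 2 (0.00156), and Krt8 was called shorter without E12.5 replicate 1 (0.0169).

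Genes of mature enterocyte function were mostly unmarked in the embryo. Of 12 sought, 5 had a region, and all 5 had a peak in both libraries at E14.5. At E12.5 this held for 1, the lipoprotein assembly gene Mttp. Of the 5, all tested, 2 were called longer, Fabp2 and Abcg8, beside 22.3% of all regions. Fabp2, a fatty acid binding protein gene, had 245 and 255 bp at E14.5, and Abcg8, a sterol transporter gene, a mean of 166 bp. Each had 0 bp at E12.5, with the limit given above for a stage at 0 bp. The E14.5 −log10 q was 2.2 and 2.36 at Fabp2 and 3.19 and 1.92 at Abcg8, far below the list medians of 32.4 and 26.2. Alpi, Sis, Apoa4 and Npc1l1, genes of alkaline phosphatase, sucrase, an apolipoprotein and the cholesterol transporter, had no embryonic peak. Fabp1, encoding a fatty acid binding protein, had 409 and 1314 bp at E14.5 and 0 bp in both E12.5 libraries, and Apoa1, encoding the main protein of high-density lipoprotein, had 2098 and 2126 bp at E14.5 and 0 and 458 bp at E12.5. Neither was called, at limma adjusted p of 0.0651 and 0.12. Without E12.5 replicate 1 or 2, both were, at 0.0364 or 0.0307 for Fabp1 and 0.00236 or 0.000774 for Apoa1. Of the 6 secretory genes, Tff3, Neurog3 and Spdef had a peak in 1 E14.5 library each, Muc2, Lyz1 and Chga had no region, and no member could be tested.

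Of 12 stem cell genes sought, 11 had a peak in both libraries at E14.5 and 7 at E12.5. 4 of the 11 tested were longer, Ascl2, Smoc2, Cd44 and Lrig1, none was shorter, and the median log2 change was 0.65 against 0.23 over all regions. This is beside 22.3% of all regions longer. An unadjusted p below 0.05 was found for 6 of the 11, and for 5823 of all 15393 regions. Ascl2, encoding the transcription factor that maintains adult crypt stem cells, was covered over 1893 and 2197 bp at E14.5 (chr7:150153104-150155300) and 0 bp in both E12.5 libraries (limma adjusted p = 0.00175). Smoc2, a matricellular protein gene, had 2108 and 1580 bp at E14.5, and Cd44, the hyaluronan receptor gene, 1041 and 1235 bp, with 0 bp at E12.5 in every library for both genes (limma adjusted p of 0.00294 and 0.00181). Lrig1, encoding an inhibitor of ERBB receptors, had 3402 and 3579 bp at E14.5 and 984 and 1208 bp at E12.5 (log2 change 0.88, SE 0.06, limma adjusted p = 0.00271). With E14.5 replicate 1 or 2 left out Lrig1 was not called, at 0.268 or 0.288. Lgr5, the R-spondin receptor that marks adult stem cells, had 2624 and 2611 bp at E14.5 and 0 and 1592 bp at E12.5. It was not called (log2 change 1.81, SE 1.28, limma adjusted p = 0.379). With replicate 2 as the lone E12.5 library the log2 change was 0.08, and with replicate 1 alone it was 3.56. The size of the Lgr5 change was thus set by the E12.5 library used. The −log10 q of Lgr5 was 34.1 and 30.1 at E14.5 and 1.9 in E12.5 replicate 2. Olfm4, another adult marker, had no embryonic region.

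The hedgehog signals through which the epithelium instructs the mesenchyme were marked widely at both stages. Shh had 10204 and 10078 bp at E14.5 (chr5:28784448-28795085) and 7040 and 8783 bp at E12.5 (log2 change −0.33, SE 0.24, limma adjusted p = 0.387). Ihh had 4813 and 4807 bp at E14.5 and 3686 and 3962 bp at E12.5 (log2 change −0.36, SE 0.10, limma adjusted p = 0.100). Ptch1, the receptor and a target of the pathway, had 6878 and 6231 bp at E14.5 and 4371 and 4804 bp at E12.5. Without scaling the log2 change was 0.36 at Shh and 0.32 at Ihh, which was then called longer (adjusted p = 0.0302). Gli1 and Hhip, also of this list, had short regions with no peak in E12.5 replicate 1. Gli1 had 807 and 880 bp at E14.5 and 0 and 162 bp at E12.5 (log2 change 1.62, SE 0.39, limma adjusted p = 0.0676). Hhip had 805 and 852 bp at E14.5 and 0 and 285 bp at E12.5 (log2 change 1.38, SE 0.56, limma adjusted p = 0.179). Of the 5 pathway genes limma called 0, with 2 at an unadjusted p below 0.05. Over all 15393 regions tested, 22.3% were longer and 2.42% shorter, and 5823 had an unadjusted p below 0.05. Without E12.5 replicate 1 or 2, Shh was called shorter at 0.00596 or 0.00644 and Ihh at 0.0141 or 0.00433. In the adult lists Shh was covered over 1160 and 2019 bp in ISC and 934 and 1404 bp in enterocytes.

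Genes of fetal growth mostly had a peak at both stages. Of 11 with a region, all had a peak in both libraries at E14.5 and 9 at E12.5, with 1 longer (Dlk1), 1 shorter (H19) and a median log2 change of −0.19. This is beside 22.3% longer and 2.42% shorter over all regions tested, and their median of 0.23. Igf2, the imprinted fetal growth factor gene, had 11105 and 10809 bp at E14.5 and 4150 and 7576 bp at E12.5 (log2 change 0.25, SE 0.30, limma adjusted p = 0.58). H19, the noncoding RNA gene imprinted beside it, had 2386 and 2469 bp at E14.5 and 1843 and 2164 bp at E12.5 (log2 change −0.39, SE 0.06, limma adjusted p = 0.022), and was shorter only after scaling. Without scaling its log2 change was 0.26, and without E14.5 replicate 1 or 2 its adjusted p was 0.913 or 0.978. Igf2bp1, an oncofetal RNA-binding protein gene, had 7408 and 6673 bp at E14.5 and 4872 and 4997 bp at E12.5 (log2 change −0.19, limma adjusted p = 0.462). Without E12.5 replicate 1 or 2, the log2 change was −0.10 or 0.55 at Igf2 and −0.14 or −0.30 at Igf2bp1. The direction at Igf2 thus rested on which E12.5 library was used. Dlk1 had 370 and 247 bp at E14.5 and 0 bp in both E12.5 libraries (limma adjusted p = 0.0119).

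In the adult lists, Igf2bp1 had 0 and 0 bp in ISC and 0 and 328 bp in enterocytes. Meis1 and Sox11, transcription factor genes of many embryonic tissues, had wide regions whose E12.5 lengths were near those of E14.5. Meis1 had 6521 and 6579 bp at E14.5 and 6239 and 6444 bp at E12.5 (log2 change −0.64, SE 0.17, limma adjusted p = 0.0797). Sox11 had 5842 and 6050 bp at E14.5 and 5629 and 5717 bp at E12.5 (log2 change −0.62, SE 0.15, limma adjusted p = 0.0728). Both were called shorter without E12.5 replicate 1 or 2, at 0.00319 or 0.00102 for Meis1 and 0.00353 or 0.00103 for Sox11. The sign rested on the scaling, since without it the log2 change was 0.05 at Meis1 and 0.07 at Sox11, and with peaks of a −log10 q of at least 10 it was 4.74 and 2.06. With that limit on q Meis1 was called longer (limma adjusted p = 0.00223) and Sox11 was not called (0.477). The name Sox11 lacks the support of the spacing of neighbouring genes. Meis2, of the same list, had 5185 and 5562 bp at E14.5 and 0 and 1230 bp at E12.5, and was not called (log2 change 2.94, SE 1.15, limma adjusted p = 0.171). Of the Hox clusters, which pattern the gut along its length and were read here by their approximate mm9 position, HoxB was covered over 13829 and 14524 bp in all at E14.5 and 866 and 3594 bp at E12.5, with 4 of 9 tested regions longer, beside 22.3% of all regions. HoxA was covered over 8174 and 9931 bp at E14.5 and 2971 and 7931 bp at E12.5, with 2 of 8 longer, and HoxD over 1803 and 3557 bp at E14.5 and 590 and 1542 bp at E12.5, with 0 of 2 longer. HoxC was covered over 0 and 302 bp at E14.5 and 267 and 1268 bp at E12.5, and its 1 tested region was not called.

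In the full lists, 12 regions had peaks in both libraries at E12.5 and none at E14.5, a number that was 204 with lists of equal number, 1001 or 208 without E12.5 replicate 1 or 2, and 2287 with the reciprocal overlap. The 12 regions called in both E12.5 and neither E14.5 library had mean lengths of 291.5 to 1026 bp at E12.5 and a −log10 q of at most 6.30. None was strong and wide, and 9 of the 12 had a peak in at least 1 adult library. The 10 longest of them had no placed gene. The region with the most covered bp, at chr18:3004533-3005845, had 0 bp in both E14.5 libraries and 1293 and 759 bp at E12.5, and was covered over 1168 bp in ISC replicate 2.

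The regions that shortened most while still called in all 4 libraries were Zim1, Pth1r, Rarb, Cdh2, Lrrc7, Igfbp2 and 4 without a placed gene. Pth1r, the parathyroid hormone receptor gene, had 2027 and 1936 bp at E14.5 (chr9:110643111-110646677) and 3328 and 3534 bp at E12.5 (log2 change −1.39, SE 0.09, limma adjusted p = 0.00254). Cdh2, encoding N-cadherin, a name without the support of gene spacing, had 1690 and 1835 bp at E14.5 and 2791 and 2820 bp at E12.5 (log2 change −1.26, SE 0.11, limma adjusted p = 0.00462). Zim1, an imprinted zinc finger gene, had 507 and 501 bp at E14.5 and 1062 and 1588 bp at E12.5 (log2 change −1.65, SE 0.16, limma adjusted p = 0.00672). In these genes the length was smaller in both E14.5 libraries also before scaling. With peaks limited to a −log10 q of at least 10, which removes E12.5 peaks of low q, the log2 change was positive at Pth1r (0.92) and Zim1 (1.58), and called longer at Zim1 (adjusted p = 5.21e-05). Cdh2 had no embryonic peak past this limit and was not tested with it.

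Igfbp2, encoding a binding protein of insulin-like growth factors, had 1389 and 1701 bp at E14.5 and 2087 and 2439 bp at E12.5, and Lrrc7, a gene of the neuronal synapse, 1488 and 1449 bp at E14.5 and 2093 and 2352 bp at E12.5. Their log2 changes were −1.14 and −1.17, with limma adjusted p of 0.00524 and 0.00208. Rarb, a retinoic acid receptor gene, had 1112 and 1674 bp at E14.5 and 1903 and 3059 bp at E12.5 (log2 change −1.37, SE 0.24, limma adjusted p = 0.0326). With the same limit on q, the log2 changes of Igfbp2, Lrrc7 and Rarb were 0.85, 2.76 and 2.67. Lrrc7 and Rarb were then called longer (limma adjusted p of 5.85e-05 and 0.00262), and Igfbp2 was not called (0.687). The region with the largest shortening, at chr4:142888969-142891107, had 326 and 424 bp at E14.5 and 1567 and 2139 bp at E12.5 (log2 change −2.37, SE 0.15, limma adjusted p = 0.00215). It was the 1 region still called shorter in the fit on regions called in all 4, at an adjusted p of 0.0474. The other 3 lay at chr7:4498229-4499375, chr6:122690834-122692711 and chr15:66115795-66118693. Without E14.5 replicate 1, Igfbp2 had an adjusted p of 0.116, Rarb 0.0756 and the chromosome 15 region 0.135. Without E14.5 replicate 2, Lrrc7 and the chromosome 7 region had 0.0507, the chromosome 6 region 0.0524 and the chromosome 15 region 0.171.

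Of these 10 regions, 9 had no peak in any adult library, the exception being Rarb. Over all 361 shorter regions called in all 4, 6.37% had no adult peak, against 3.31% of all regions called in all 4 and 2.33% of the longer ones. Among the 10 with the largest lengthening, none was without an adult peak.

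**Figure D4:**
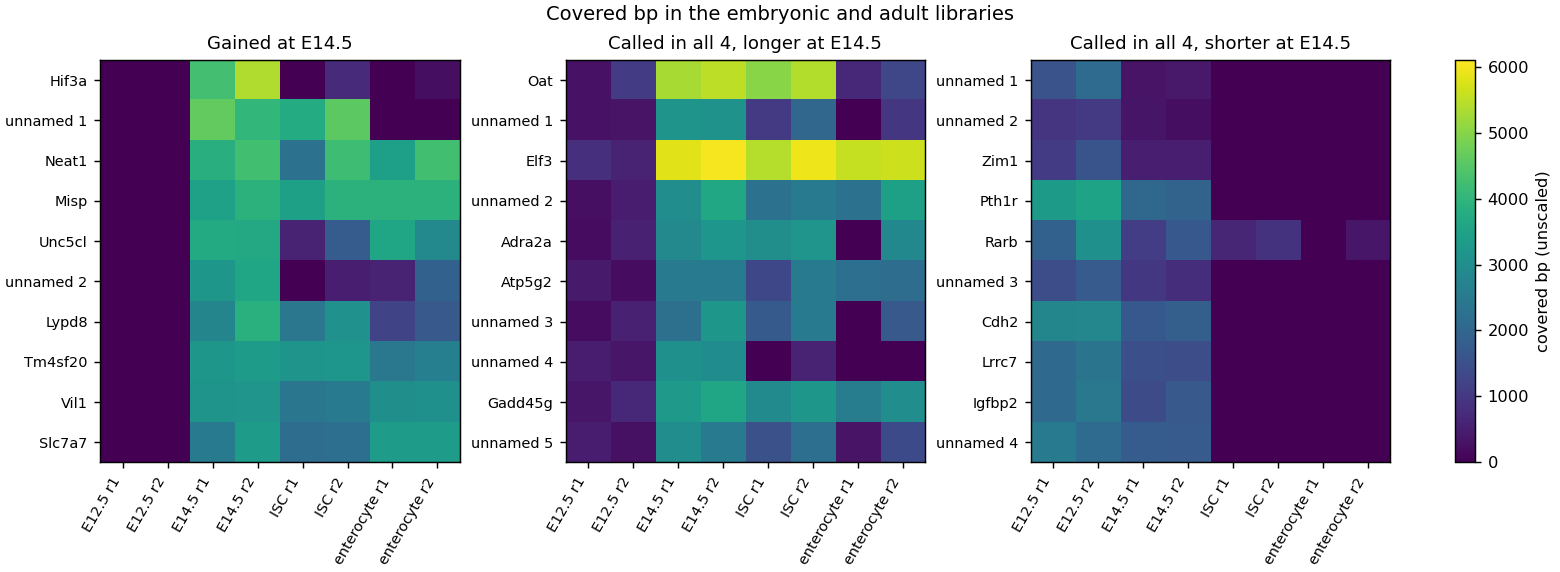
Covered bp (colour, unscaled) in all 8 H3K4me3 libraries (columns, r1 and r2 for the replicates) for the 10 longest gained regions, and for the 10 regions called in all 4 embryonic libraries with the largest lengthening and the largest shortening (rows). In the right panel 9 of the 10 rows are at 0 bp in all 4 adult columns.

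The 10 strong and wide regions with the largest shortening were Lsm14a, Lmo4, Ska2, Ptprk, Phtf2, Cnn3, Cdk6, Gid8, Sfpq and a region at chr8:46019825-46024490 without a placed gene. Their log2 changes ran from −0.66 to −0.47, and the call rested on the scaling. Lsm14a, an RNA granule protein gene, had 3160 and 2994 bp at E14.5 and 2952 and 3172 bp at E12.5 (limma adjusted p = 0.0198). Lmo4, a LIM domain cofactor gene, had 4779 and 4645 bp at E14.5 and 4413 and 4852 bp at E12.5 (limma adjusted p = 0.0291). Unscaled lengths of the stages thus overlapped in both genes, and 0 of the 19 shorter strong and wide regions were shorter in both E14.5 libraries before scaling. Without scaling limma called 0 strong and wide regions shorter and 259 longer. Without E14.5 replicate 1 or 2, limma called 0 strong and wide regions shorter, and the 10 regions had adjusted p of 0.568 to 0.978.

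Some markers of other cell types had a region. Of 18 mesenchyme markers, 9 had a region, 8 with a peak in both libraries at E14.5 and 2 at E12.5, and 3 were longer, Col1a1, Snai2 and Prrx1, all with 0 bp at E12.5, beside 22.3% of all regions. The 8 tested had a median log2 change of 1.41, against 0.23 over all regions. Foxf1, Twist1, Zeb1 and Zeb2 also had a peak in both E14.5 libraries, Zeb1 in both E12.5 libraries as well, and Des had a peak in E14.5 replicate 1 only. Their E14.5 lengths were 1058 and 709 bp for Col1a1, 470 and 332 bp for Snai2, and 542 and 412 bp for Prrx1. With quantile normalization none of the 3 was called, at adjusted p of 0.29, 0.522 and 0.806, and the log2 change was −0.15 at Snai2 and −0.06 at Prrx1. Vim, encoding the filament protein vimentin, had 2294 and 2114 bp at E14.5 and 526 and 1936 bp at E12.5 (log2 change 0.34, SE 0.54, limma adjusted p = 0.675). Its direction was set by the E12.5 library used, with −0.41 without replicate 1 and 1.05 without replicate 2. The list summed to 8673 and 9135 bp at E14.5 and 898 and 4181 bp at E12.5, and Pdgfra, Pdgfrb, Col1a2, Col3a1, Acta2, Wt1, Barx1, Nkx2-3 and Nkx3-2 had no peak in any of the 4. Of the 7 endothelial and leukocyte markers placed, Cdh5, Kdr, Tek, Ptprc and Spi1 had no region, Tal1 had a peak in 1 E14.5 library, and Runx1 was called in all 4. Of the neural crest and neuron markers, Ret had a region, and Sox10 and Tubb3 did not. The part of other cell types in the differences between the stages was not tested. Pdx1, the duodenal and pancreatic factor gene, had 2643 and 3468 bp at E14.5 and 0 and 702 bp at E12.5 (limma adjusted p = 0.149, and 0.00574 or 0.000808 without E12.5 replicate 1 or 2), while Sox2, of the foregut, had a peak of 293 bp in 1 E14.5 library. The 6 housekeeping genes were called in all 4 libraries, with a median log2 change of 0.18, and limma called 0 of them, with 0 at an unadjusted p below 0.05. Over all 15393 regions tested, 5823 had an unadjusted p below 0.05, and the median log2 change was 0.23.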

How the data were processed

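H3K4me3 ChIP-seq peak lists of 4 embryonic libraries, 2 for each stage, were compared. Their groups and replicate numbers came from the sample titles. Per the submitters' processing notes, bcl2fastq 1.8.4, Bowtie 1.1.2, SAMtools 1.2 and the build mm9 were used. Per the file headers, the authors called peaks with MACS 2.0.10.20130712 in broad mode, for each library separately and against the input of its stage, and each line holds a length in bp, a pileup signal (coverage), a −log10 p-value, a −log10 q-value and a fold enrichment over input. The deposited −log10 q-value served to filter or rank peaks within a list and is printed as the authors' value to describe lists and peaks, and the deposited signal and fold were not used. Read counts are not part of the lists, and a missing peak means that none was called at that depth.

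Autosomal peaks of the 4 lists that overlapped or touched were merged, and the bp under the peaks of each library were counted in every region. Covered bp was divided by a library factor (1.26 and 1.30 for E14.5 replicates 1 and 2, 0.716 and 0.855 for E12.5 replicates 1 and 2) that equalized the medians over the regions called in all 4. Regions with a peak in 2 or more libraries entered a two-sided test with limma 3.58.1 (R 4.3.3, trended prior) on log2(scaled bp + 200), with Benjamini-Hochberg adjustment over all 15393 regions. The fit had 2 residual and 1.47 prior degrees of freedom. The step was tested on simulated lengths, which held no region without a peak in a whole stage, so gained and lost regions were not covered. Alternatives changed the pseudocount, the scaling, the filter, the lists, the libraries in the fit and the blocking by replicate number.

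No mm9 annotation was used. Gene names rest on mm9 start positions recalled without an annotation, checked against the spacing of neighbouring gene starts in the RefSeq GRCm38.p6 table, whose coordinates were not used for this. Of 160 genes sought, 157 were placed, 151 of them with that spacing in support and Klf4, Myc, Sox11, Pcdh7, Nkx3-2 and Cdh2 without it. Regions with the largest changes were named by a fixed rule: 10 per direction among strong and wide regions, 10 per direction among regions called in all 4 libraries, and the 10 gained and 10 lost regions with the most covered bp, besides the genes of 14 lists. The regions, lists and genes were chosen with earlier results of these data known, and 38 gene names were added after the values were seen. 1 listed marker is not reported here.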

Additional observations from a re-analysis of the deposited data

How the results depend on the processing

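The direction and number of calls depended on the scaling and on which libraries were used. Longer and shorter calls over all regions were 9491 and 21 without scaling (where the median log2 change was 0.81 and not 0.23), 517 and 83 with quantile normalization (median −0.08), 476 and 153 with lists of equal number (the 10699 strongest peaks of each) and 2 and 1 in the fit on regions called in all 4 libraries, where 2421 had an unadjusted p below 0.05. Shorter calls were 197 with regions called in at least 1 library and 39 with peaks of a −log10 q of at least 10. Leaving out a library gave 27 to 7173 longer and 10 to 2704 shorter calls. The lone library of a stage is then assumed to vary like the pair, and without an E14.5 library gained regions have a single peak and leave the test.

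For strong and wide regions the longer and shorter calls were 259 and 0 without scaling, 44 and 1 with quantile normalization, 14 and 2 with lists of equal number, 82 and 26 with the −log10 q limit, 1 and 0 in the fit on regions called in all 4, 29 and 32 with regions called in at least 1 library, and 26 and 34 with all 8 libraries in the fit. They were 126 and 126 with wide taken from 2000 bp and 9 and 2 from 4000 bp, and 5 to 98 and 0 to 178 when a library was left out. Gained regions were 365 with lists of equal number and 5035 with reciprocal overlap of 50%, against 204 and 2287 lost ones. With the −log10 q limit 0 were lost, and 73 gained regions were strong and wide. Leaving out a library gave 3329 to 4988 gained and 14 to 1001 lost regions. The strong and wide set was kept as defined with all 4 libraries, where 374 of its 376 regions were called in all 4 and 2 were gained. Its 2 gained and 0 lost regions therefore could not change when a library was left out, which says nothing on their stability. Over the genes of the lists, with 17 longer and 2 shorter, the calls were 56 and 0 without scaling, 11 and 0 with quantile normalization, 6 and 0 with lists of equal number, 0 and 0 on regions called in all 4, 21 and 0 with the −log10 q limit, 14 and 0 with all 8 libraries and 16 and 5 with regions called in at least 1 library, and 2 to 44 and 0 to 17 when a library was left out.

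The replicate number does not pair the libraries: deviations of same-numbered libraries from their stage means correlated at 0.058 over the regions tested. With the replicate number as a block, 3424 regions were longer and 117 shorter, with 24 and 4 among strong and wide regions and 17 and 1 over the lists.

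Without scaling, the log2 change turned positive at Lsm14a (0.01), Lmo4 (0.02), Ska2 (0.08), Ptprk (0.11), the chromosome 8 region (0.11), Phtf2 (0.12), Cnn3 (0.13), Gid8 (0.18), Cdk6 (0.19), Sfpq (0.20), Meis1 (0.05), Sox11 (0.07), Foxa2 (0.15), H19 (0.26), Shh (0.36) and Krt8 (0.37). It was positive and called at Ihh (0.32), Igf2bp1 (0.49), Ptch1 (0.50) and Epcam (0.57). The −log10 q limit removes E12.5 peaks of low q. With it the log2 change was positive at Pth1r (0.92), Igfbp2 (0.85), the chromosome 15 region (1.11), Lmo4 (1.85) and the chromosome 8 region (1.89). It was positive and called longer at Zim1 (1.58), Rarb (2.67), Lrrc7 (2.76), H19 (3.40), Foxa2 (3.52), Cdk6 (4.14) and Meis1 (4.74). It was negative with quantile normalization at Prrx1 (−0.06), Snai2 (−0.15) and Dlk1 (−0.26), and with lists of equal number at the second chromosome 13 region (−0.05). Without E12.5 replicate 1 it was negative at Vim (−0.41, against 1.05 without E12.5 replicate 2), and also at Cdx2 (−0.16, against 0.31) and Igf2 (−0.10, against 0.55). For these quantile, equal-list and single-library values the cause was not tested. Elf3 and Cnnm4 kept their direction in every setting. Neat1, at 0 bp in both E12.5 libraries, could turn only with quantile normalization, where its log2 change was 3.23. It was not tested with lists of equal number, with the −log10 q limit, on regions called in all 4, or with an E14.5 library left out.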
